A study of Mus musculus with 27 samples.

Results

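The 138 genes described here encode voltage-gated and potassium channel subunits of the mouse, out of 54532 genes in the table of bulk RNA-seq levels. They are the protein-coding genes whose symbols start with Kcn, Cacn or Hcn, or have the form Scn, a number and a or b. Kcn genes encode potassium channels and their auxiliary subunits, Cacn genes voltage-gated calcium channels, Hcn genes hyperpolarization-activated cation channels, and Scn genes voltage-gated sodium channels. Levels were given in FPKM, fragments scaled to gene length and to a size given to each library, so that a long and a short gene can be set side by side. All 27 libraries were from mouse embryonic fibroblasts (MEFs), taken from day 13.5 embryos without head and heart, the cells of 4 embryos being pooled per dish. The cells of all 9 groups had been transduced with lentiviruses for the BAM genes, transcription factors that include Brn2 (gene symbol Pou3f2) and Myt1l, under a doxycycline-dependent promoter and for the M2rtTA activator. There were 3 genotypes, WT, Per1-/- (allele Per1tm1Drw), and Per2-/- (allele Per2tm1Drw), and the sex of the embryos was not determined. Each genotype was harvested on day 0, before the change to the reprogramming medium with doxycycline, and on day 2 and day 4 after it. Until day 0 the medium held serum, and the reprogramming medium held none. Each group held 3 libraries labelled as biological replicates.

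The labels call all 27 samples induced neurons (iNs), day 0 included, but the cultures were mixtures. Fibroblast markers summed to 2960.3 to 3585 FPKM in WT on day 0 and 4321 to 5902 FPKM on day 4. The 14 neuron markers summed to 53.8 to 59.1 FPKM on day 0, with 5 of them under 0.1 FPKM in all 3 WT libraries, and 160.2 to 223 FPKM on day 4, with none so low. Rbfox3, which encodes the mature neuron antigen NeuN, was at 0.101 FPKM in WT on day 4. Macrophage markers were present in every group. Pou3f2 had group means of 0 to 0.0210 FPKM on day 0 and 286 to 531 FPKM on day 2, and the group labelled Per2-/- was highest on days 2 and 4. Myt1l stayed far lower, with group means of 0.677 to 0.924 FPKM on day 2 and 1.00 to 1.19 FPKM on day 4. The paper's methods write the name of that construct as Myt1. Per1 was lower in every Per1-/- library than in every WT library on 3 of 3 days, and its transcript was still present. In Per1-/- cells its group means on days 0, 2, and 4 were 4.11, 4.21, and 4.45 FPKM. The WT means were 5.78, 4.80, and 5.16 FPKM. Per2 transcript was higher in every library labelled Per2-/- than in every WT library on 3 of 3 days. Its group means on days 0, 2, and 4 were 1.93, 2.83, and 2.83 FPKM under that label. In WT they were 0.894, 1.57, and 1.73 FPKM. By western blotting, the paper verified loss of PER1 protein in Per1-/- MEFs and of PER2 protein in Per2-/- MEFs. The level of RNA does not show whether protein was made. Those libraries are named by their label throughout. Depth was 15815013 to 24264097 fragments on genes per library.

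A neuron fires because ion channels open in turn. Voltage-gated sodium channels start the action potential, voltage-gated potassium channels end it, calcium channels turn depolarization into transmitter release and gene regulation, and hyperpolarization-activated channels pace repeated firing. Inward rectifier and tandem pore domain potassium channels set the resting potential, and calcium-activated and sodium-activated potassium channels shape the afterpotential. Auxiliary subunits carry no current of their own and alter the trafficking and gating of the pore subunits. Fibroblasts and macrophages also carry potassium channels, so none of these families is a neuron marker as a whole.

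Channel transcripts were more abundant as a group on days 2 and 4 than on day 0. Doxycycline, the loss of serum, the other changes of medium, and time in culture came together. No library of the later days was without doxycycline, so these cannot be told apart in any comparison with day 0. Their summed level was 105 to 141 FPKM in the 9 libraries of day 0, 224 to 272 FPKM on day 2, and 232 to 268 FPKM on day 4, with no overlap between day 0 and the later days. In WT, 21 members had a mean of at least 1 FPKM on day 0, 35 on day 2, and 41 on day 4. The corresponding numbers for Per1-/- cells were 20, 33, and 39, and the libraries labelled Per2-/- had 21, 31, and 39. Kv pore subunits, the voltage-gated potassium channels proper, contributed 2 members at this level in WT on day 0 and 10 on day 4. In bulk RNA, more cells of a type and more RNA per cell cannot be told apart.

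**Figure D1:**
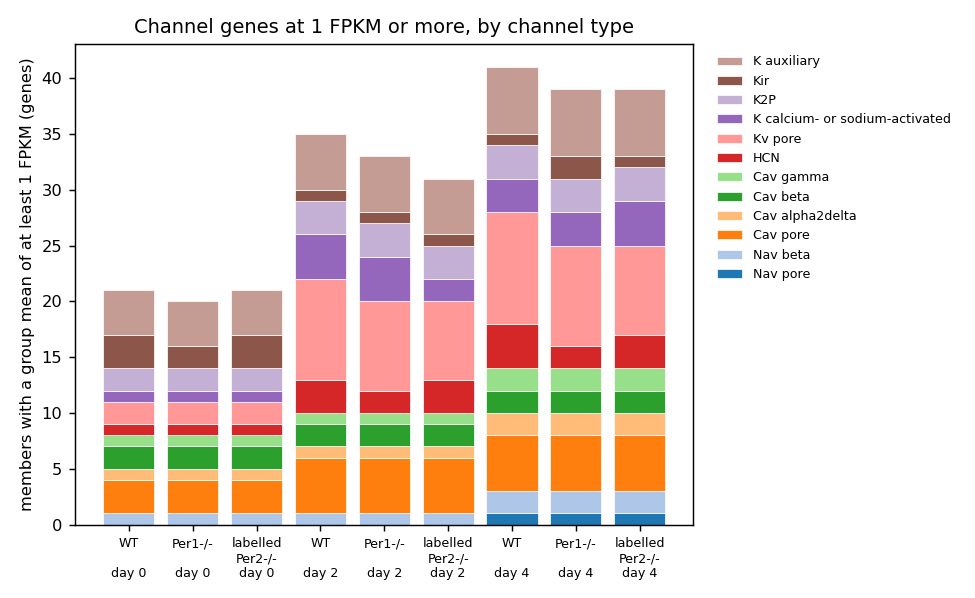
Number of channel genes (y axis) with a group mean of at least 1 FPKM in each of the 9 groups (x axis), stacked by channel type. The 3 bars of day 0 stand at 21, 20, and 21 genes and the 3 bars of day 4 at 41, 39, and 39 genes.

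Of the 138 members, 51 averaged 0.5 FPKM or more across all 27 libraries and entered the test with all other genes at that level, 14932 in total. The test was limma on log2(FPKM + 0.1), and a gene counted as called when its Benjamini-Hochberg adjusted p was 0.05 or lower and its log2 fold change was 0.58 or more in either direction. Fold changes on this scale understate the change of genes near 0. In WT, 31 members rose and 7 fell from day 0 to day 2, that is 74.5% of those tested, where 40.5% of all tested genes were called, 20.8% higher and 19.7% lower. From day 0 to day 4, 36 members rose and 6 fell in WT (82.4%, against 43.8% of all genes). Over all genes 22.9% were higher and 20.9% lower on day 4. That split depended on the scaling. By total fragments 32.5% of all genes were higher and 12.4% lower, with 39 members higher and 4 lower, and at a common sum 37.0% were higher and 10.01% lower, with 42 members higher and 4 lower of 52 tested. The median log2 fold change of the 51 members was 1.5, and that of all tested genes was -0.02. A member passed this filter more easily when it was high in the later libraries, so these shares describe the tested members and not all 138. Other cell types moved over the same days. In WT 10 of 12 tested neuron markers, 11 of 15 macrophage markers and 8 of 10 fibroblast markers rose by day 4, and 7 of 8 smooth muscle and contractile markers fell. Scaling the libraries to a common sum or by total fragments moved the median log2 fold change of all genes against day 0 up by 0.24 to 0.42 over the 3 genotypes. The library sizes behind the FPKM were 0.865 to 0.925 times the fragments on genes on day 0 and 1.03 to 1.10 times later. Both scalings ended the calls of Cacna1a, Cacna1c, and Kcnn4 in some comparisons, all of them falls.

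The other genotypes gave like counts. In Per1-/- cells 34 members rose and 7 fell by day 2 (background 39.6% of all genes called, 20.8% higher and 18.8% lower), and 36 rose and 5 fell by day 4 (background 43.0%, 22.6% higher and 20.4% lower). In the libraries labelled Per2-/-, 31 rose and 6 fell by day 2 (background 35.5%, 18.7% higher and 16.8% lower), and 34 rose and 5 fell by day 4 (background 40.3%, 21.6% higher and 18.8% lower). On day 4, 31 members were higher and 5 were lower than on day 0 in all 3 genotypes. The share of all genes called in all 3 genotypes was not computed, so these counts have no background beside them. None of the called members rose in 1 comparison with day 0 and fell in another. Within a genotype, the day 2 and day 4 comparisons share the day 0 libraries. Kcnd1, Kcnk2, Kcnk5, and Scn7a were among the 5 tested members called in no comparison. The Per1-/- libraries of days 0 and 2 were taken as paired by replicate number, from correlated deviations and not from a label. With the replicate number as a block Kcnk2 (log2 fold change -0.62) and Scn2a (0.59) were called there as well, 43 members in all.

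**Figure D2:**
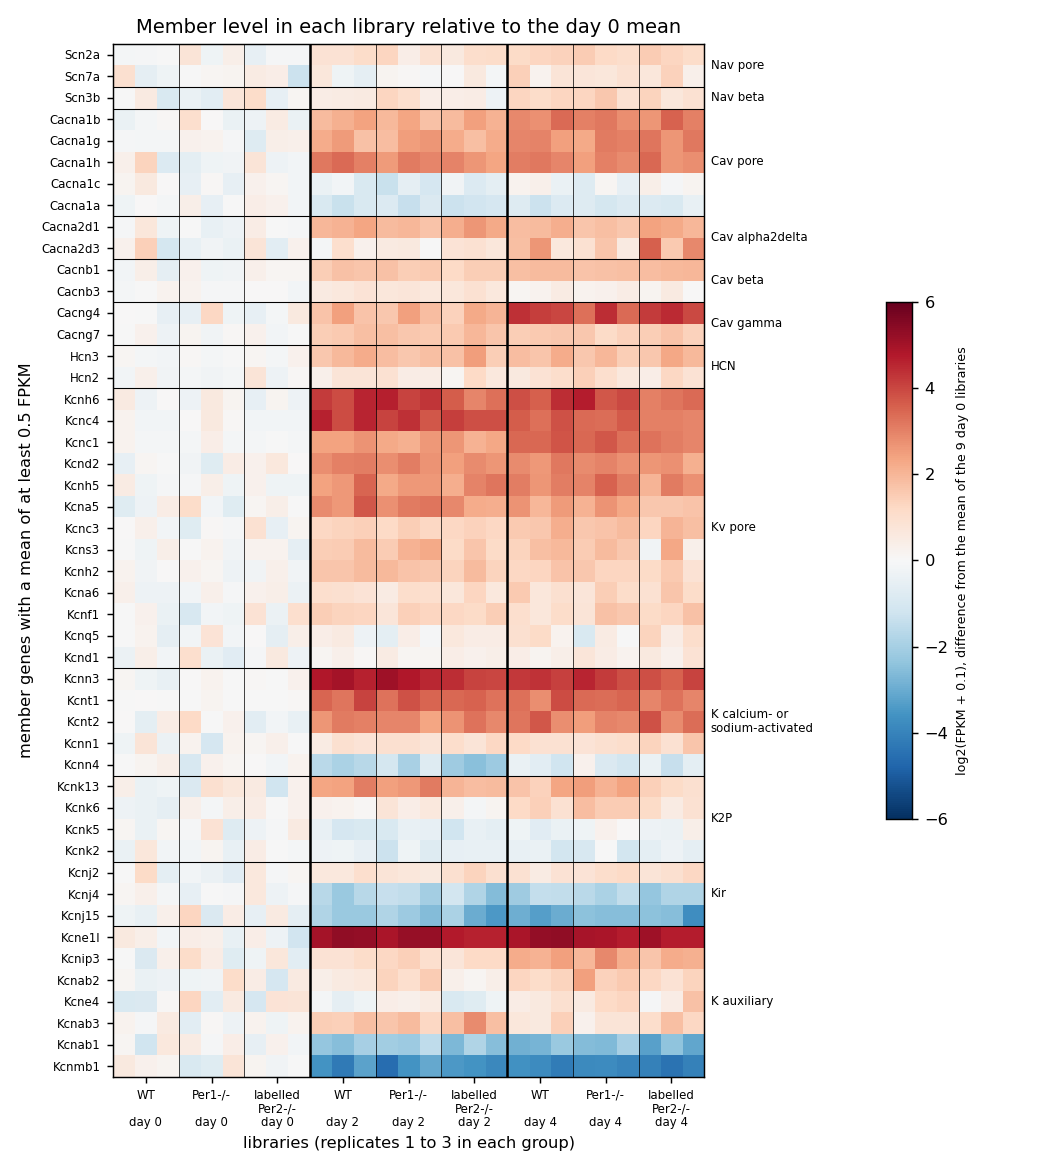
Level of the tested members reported here (rows, grouped by channel type and ordered by the WT change from day 0 to day 4) in each of the 27 libraries (columns), as the difference in log2(FPKM + 0.1) from the mean of the 9 day 0 libraries (colour). Most rows turn to higher values on day 2 and stay so on day 4, and Kcnab1, Kcnmb1, Kcnj4, and Kcnj15 turn to lower values.

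**Figure D3:**
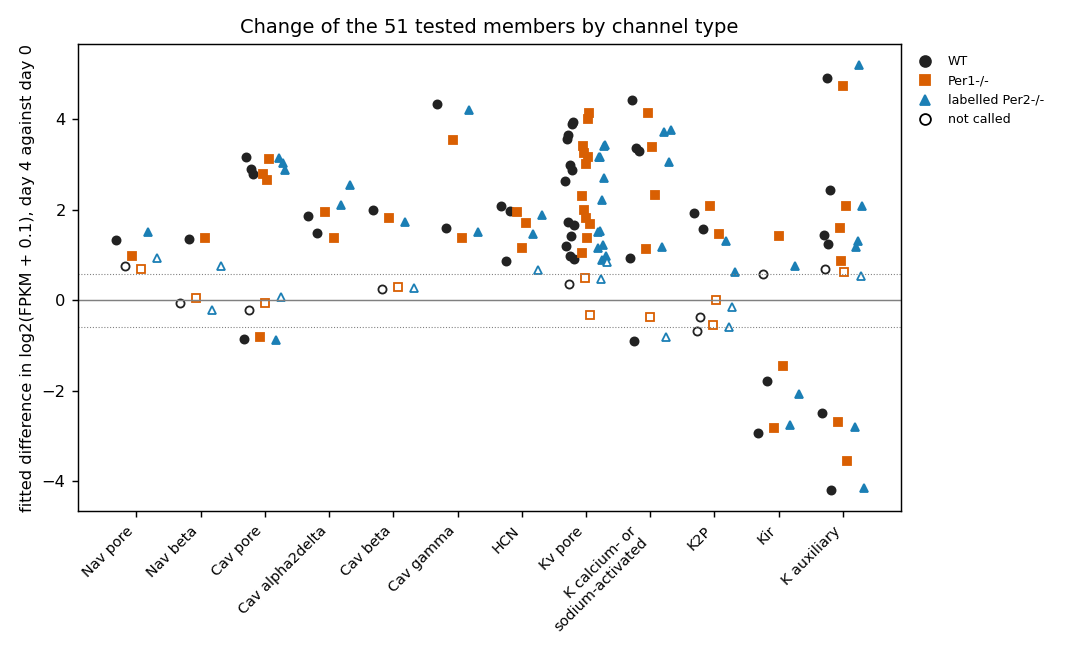
Fitted difference in log2(FPKM + 0.1) between day 4 and day 0 (y axis) for the 51 tested members by channel type (x axis) and genotype (symbols). Filled symbols are called members, open symbols are not, dotted lines mark the minimum of 0.58, and Kv pore members lie above 0 with 1 exception in Per1-/- cells, Kcnq5 at -0.32.

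Promoter sequence was read for the members because E-boxes with the core CAGCTG are known binding motifs of basic helix-loop-helix factors, and because the repressor REST, expressed at 12.7 to 13.5 FPKM on day 0 and 12.2 to 13.2 FPKM on day 4, is known to silence neuronal channel genes through the RE1 element in non-neuronal cells. The windows ran from 250 bases before to 50 bases after each RefSeq start (GRCm38.p6) and were found for 101 of the 138 members. CAGCTG, which reads the same on both strands, was in 27% of 137 member promoters and in 16.3% of all 32851 promoters. Among the members that rose by day 4 in all 3 genotypes it was in 7 of 29 promoters, those of Cacna1b, Cacna2d3, Kcna5, Kcne1l, Kcnip3, and Kcnn1. That is 24.1%, below the share among all member promoters. It was in 0 of 6 promoters of the members that fell, which belong to 4 genes and are too few to compare. The left part of the RE1 element, TTCAGCACC, was in 1 member promoter, that of Kcnh6, and in 0.371% of all promoters, both strands searched. These matches describe the letters in the window and are not measurements of binding. The E-box windows of 5 of these 6 members, and the Kcnh6 window with the left and the right part of the RE1 element (GGACAGC) 7 bases apart, are printed 5′ to 3′ on the strand of the gene with the motif in capitals.
Cacna1b (chr2:24763143-24763172, minus strand): cgggtgcggtagCAGCTGgcgggcgaggtc
Cacna2d3 (chr14:29722019-29722048, minus strand): ggcggggctgggCAGCTGccgcggcaagag
Kcna5 (chr6:126535530-126535559, minus strand): ctgctggggcccCAGCTGaaccctccagag
Kcne1l (chrX:142306298-142306327, minus strand): tcctccccctacCAGCTGtcccctttcccc
Kcnip3 (chr2:127522217-127522246, minus strand): gggagggtctagCAGCTGccgctaattggc
Kcnh6 (chr11:106007959-106007988, plus strand): tatTTCAGCACCacgacgcGGACAGCtccc

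Voltage-gated sodium channel pores were low on all 3 days. Of the 10 pore genes, 2 passed the filter. Scn2a, which encodes a pore of early neuronal axons, rose by day 4 in all 3 genotypes, with group means of 0.258 to 0.420 FPKM on day 0 and 0.885 to 0.919 FPKM on day 4 and log2 fold changes of 1.34 (WT), 0.97 (Per1-/-), and 1.51 (labelled Per2-/-). Scn7a, which encodes a sodium-sensing relative with altered gating, was at 0.818 to 0.913 FPKM on day 0 and 1.41 to 1.53 FPKM on day 4 and was not called (log2 fold changes 0.70 to 0.92, SE 0.44, adjusted p of at least 0.0770). The highest value of the other 8 pore genes in any library was 0.514 FPKM, Scn1a, Scn3a, and Scn8a, the other pores of central neurons, among them. Scn3b, the β subunit of immature neurons, rose by day 4 in WT (log2 fold change 1.36) and Per1-/- cells (1.38) and was not called in the libraries labelled Per2-/- (0.75). Both calls were lost with macrophage markers as a covariate. This covariate, the mean log2(FPKM + 0.1) of the 15 markers, itself rose with day. In WT it was 2.41 to 3.33 on day 0 and 4.15 to 4.73 on day 4. A fit with it cannot separate the markers from the day, here or for the other members below.

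Calcium channel pores moved in both directions. Cacna1g and Cacna1h, the low-threshold T-type pores that open near the resting potential, rose by day 2 and stayed high. On day 0 Cacna1h was at 0.990, 2.14 and 0.403 FPKM in WT, 0.487, 0.638 and 0.659 FPKM in Per1-/- cells and 1.42, 0.614 and 0.684 FPKM in the libraries labelled Per2-/-. On day 2 it was at 7.80, 9.17 and 7.09 FPKM in WT, 5.20, 7.51 and 6.76 FPKM in Per1-/- cells and 6.87, 5.42 and 4.46 FPKM in the libraries labelled Per2-/-. On day 4 it was at 7.43, 7.92 and 6.63 FPKM in WT, 4.73, 7.13 and 6.20 FPKM in Per1-/- cells and 9.69, 5.47 and 6.06 FPKM in the libraries labelled Per2-/-. Each library of days 2 and 4 was above each day 0 library of its genotype. The fold between the means of day 4 and day 0 was 6.22 to 10.1 for Cacna1h and 6.97 to 8.45 for Cacna1g over the 3 genotypes. Cacna1b, the N-type pore of presynaptic terminals, had group means of 0.295 to 0.449 FPKM on day 0, 1.70 to 1.86 FPKM on day 2, and 3.38 to 3.69 FPKM on day 4, with log2 fold changes from day 0 to day 4 of 3.16 (WT), 2.78 (Per1-/-), and 3.14 (labelled Per2-/-) (SE 0.31). Cacna1a, the P/Q-type pore that also serves presynaptic terminals in mature neurons, fell by day 2. Its WT call on day 2 was lost at a common sum. Its group means were 2.36 to 2.90 FPKM on day 0, 1.09 to 1.22 FPKM on day 2, and 1.27 to 1.51 FPKM on day 4. The fall of Cacna1a on day 4 (log2 fold changes -0.89 to -0.81) was lost in WT and Per1-/- cells when the libraries were scaled by total fragments or to a common sum. Cacna1c, the L-type pore of smooth muscle, heart, and many other cells, had the highest mean of the calcium channel pores on day 0, at 2.84 to 4.21 FPKM. It fell by day 2 in WT (log2 fold change -0.74) and Per1-/- cells (-0.65), both lost under the same scalings, and was not called on day 4 (-0.21 to 0.08).

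The auxiliary calcium channel subunits held the most abundant of the 138 members on day 4 in each genotype, Cacng7. It encodes a transmembrane regulator of AMPA receptors that is classed with the calcium channel γ subunits, and it rose, with group means of 16.6 to 17.2 FPKM on day 0, 52.1 to 56.6 FPKM on day 2, and 44.1 to 49.5 FPKM on day 4. Cacna2d1, the α2δ subunit that binds gabapentin and brings pores to the membrane, rose too, with group means of 5.51 to 7.38 FPKM on day 0, 24.1 to 34.4 FPKM on day 2, and 21.3 to 31.3 FPKM on day 4. For both genes every day 4 library was above every day 0 library of its genotype. Cacng4, a relative of Cacng7 with the same kind of function, rose in steps. It was at 0.0441, 0.0406 and 0 FPKM in WT, 0, 0.236 and 0.0189 FPKM in Per1-/- cells and 0, 0.0297 and 0.114 FPKM in the libraries labelled Per2-/- on day 0. On day 2 Cacng4 was at 0.356, 0.680 and 0.360 FPKM in WT, 0.336, 0.676 and 0.408 FPKM in Per1-/- cells and 0.268, 0.588 and 0.485 FPKM in the libraries labelled Per2-/-. On day 4 Cacng4 was at 2.83, 2.43 and 2.16 FPKM in WT, 1.29, 2.96 and 1.38 FPKM in Per1-/- cells and 2.45, 3.00 and 2.13 FPKM in the libraries labelled Per2-/-. The day 4 libraries did not overlap those of day 2, and the log2 fold changes between these days were 2.22 (WT), 1.73 (Per1-/-), and 2.30 (labelled Per2-/-) (SE 0.42, adjusted p of at most 0.0252). Cacnb1 and Cacnb3 encode β subunits that bind the pore from inside the cell. Cacnb1 rose, its group means being 1.27 to 1.54 FPKM on day 0 and 4.73 to 5.36 FPKM on day 4. Cacnb3 was at 17.0 to 17.7 FPKM on day 0, rose to 27.7 to 29.5 FPKM by day 2, and was not called on day 4 (log2 fold changes 0.25 to 0.29). Cacna2d3 rose by day 4 in all 3 genotypes (log2 fold changes 1.38 to 2.55), with a wide spread of 1.54 to 6.55 FPKM among the day 4 libraries labelled Per2-/-. Its call was lost in WT and Per1-/- cells with voom weights or with macrophage markers as a covariate.

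Hyperpolarization-activated channels rose at low levels. Hcn3 rose in all 3 genotypes, with 0.190 to 0.216 FPKM on day 0 and 0.871 to 1.08 FPKM on day 4. In the annotation 17.1% of its exon bases are shared with Pklr, so that unstranded reads cannot be told apart there. Hcn2 was at 1.03 to 1.37 FPKM on day 0 and rose by day 4 in WT (log2 fold change 0.86) and Per1-/- cells (1.15), the WT call being lost with macrophage markers as a covariate. In the libraries labelled Per2-/- it was not called (0.66). Hcn4, the slow form known from the sinoatrial node and thalamus, was under the filter and had means of 0.0449 to 0.112 FPKM on day 0, 0.209 to 0.272 FPKM on day 2, and 0.879 to 1.13 FPKM on day 4.

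Kv pore subunits made up the largest group of members that rose. Of 14 tested, 13 were higher on day 4 than on day 0 in WT, 12 in Per1-/- cells, and 12 among libraries labelled Per2-/-, and 0 were lower. Over all tested genes 22.9%, 22.6%, and 21.6% were higher in these comparisons. The median log2 fold changes of the 14 were 2.18, 2.15, and 1.51. The other 26 of 40 Kv pores were under the filter, which a gene high in the later libraries passed more easily. Kcnh6 and Kcnh2 encode pores of the erg family, which set excitability near threshold and repolarize the heart. On day 0 Kcnh6 was at 0.104, 0.0136 and 0.0421 FPKM in WT, 0.0146, 0.110 and 0.0573 FPKM in Per1-/- cells and 0, 0.0598 and 0.0164 FPKM in the libraries labelled Per2-/-. On day 2 Kcnh6 was at 2.50, 2.04 and 3.25 FPKM in WT, 3.50, 2.24 and 2.71 FPKM in Per1-/- cells and 1.64, 0.968 and 1.29 FPKM in the libraries labelled Per2-/-. On day 4 Kcnh6 was at 1.95, 1.62 and 2.96 FPKM in WT, 3.56, 1.78 and 2.14 FPKM in Per1-/- cells and 1.05, 1.20 and 1.39 FPKM in the libraries labelled Per2-/-. No library of day 2 or day 4 overlapped day 0, and the fold between the means of day 2 and day 0 was 46.6 to 51.2. Kcnh2, expressed in the MEFs at 2.24 to 2.33 FPKM, rose to 6.74 to 7.92 FPKM on day 2 and was 5.42 to 6.27 FPKM on day 4. Kcnh5, of the wider ether-a-go-go family, was at 0.0140 to 0.0257 FPKM on day 0 and 0.662 to 0.985 FPKM on day 4. Kcns3 and Kcnf1 encode silent subunits, which form channels only together with other pores. Kcns3 rose by day 2 in all 3 genotypes, with group means of 0.234 to 0.249 FPKM on day 0 and 0.741 to 1.23 FPKM on day 2. Kcnf1 rose by day 4 in all 3 genotypes, with group means of 0.232 to 0.577 FPKM on day 0 and 0.747 to 1.09 FPKM on day 4 and log2 fold changes of 0.99 (WT), 1.82 (Per1-/-), and 0.90 (labelled Per2-/-).

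Kcnc1 and Kcnc4 encode pores of the Shaw family, which close fast and allow high firing rates. Both were near 0 in the MEFs. Kcnc4 had 2, 0 and 0 fragments in the WT libraries of day 0 and 253, 100 and 184 fragments on day 2, a ratio of 256 (95% counting interval 70.6 to 2122). In the libraries labelled Per2-/- it had 0 fragments on day 0 and was at least 109-fold higher on day 2, taking 3 fragments over the 3 libraries as the floor. Counting intervals and floors cover counting error only. Kcnc4 means were 1.67 to 2.27 FPKM on day 2 and 0.802 to 1.28 FPKM on day 4, and the fall between these days was called in the libraries labelled Per2-/- (log2 fold change -0.96, adjusted p = 0.0208). Kcnc1 had means of 0.446 to 0.507 FPKM on day 2 and 0.811 to 1.17 FPKM on day 4. The log2 fold changes of Kcnc1 between these days were 1.06 (WT), 1.14 (Per1-/-), and 0.74 (labelled Per2-/-), and the last of them was not called (adjusted p = 0.0872).

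Kcnq5, a slow pore of the M-current family in brain, was at 0.569 to 0.746 FPKM on day 0 and rose by day 4 in WT (log2 fold change 0.90) and the libraries labelled Per2-/- (0.99), with -0.32 in Per1-/- cells, which was not called. The difference in that change between Per1-/- cells and WT was not called either. Kcnd2, the main dendritic A-type pore, was at 0.371 to 0.527 FPKM on day 0 and rose to 3.09 to 3.82 FPKM by day 2. Kcnd1, of the same family, was at 1.68 to 1.93 FPKM on day 0 and 2.15 to 2.61 FPKM on day 4 and was not called. Kcna5, a delayed rectifier pore of muscle and glia that is also found in macrophages, was highest on day 2 at 0.818 to 1.36 FPKM, against 0.0519 to 0.0994 FPKM on day 0 and 0.417 to 0.808 FPKM on day 4.

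**Figure D4:**
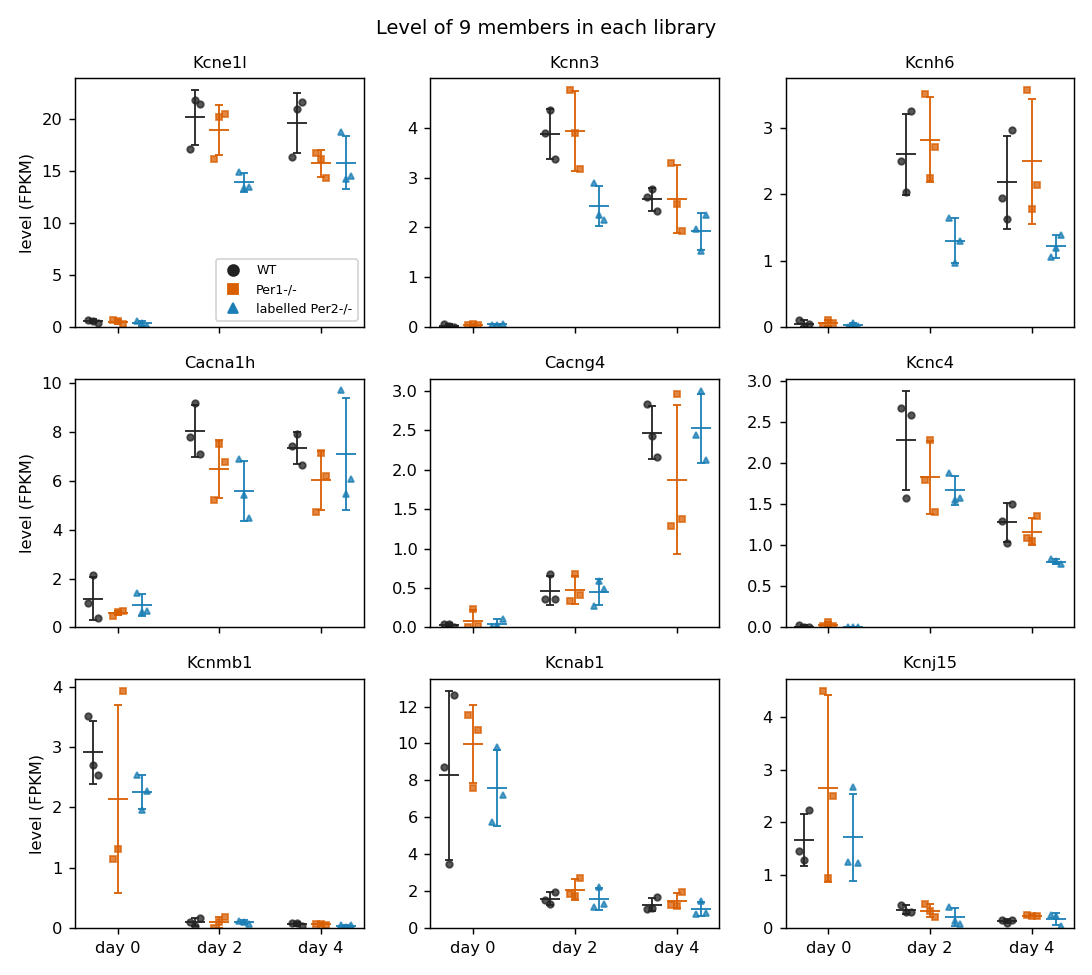
Level in FPKM (y axes, each from 0) of 9 members in each library by day (x axes) and genotype (symbols), with horizontal marks for the group mean and bars for 1 SD (n = 3). Kcne1l, Kcnn3, and Kcnh6 were up by day 2, Cacng4 went on to higher values on day 4, Kcnc4 was lower on day 4 than on day 2 in means, and Kcnmb1, Kcnab1, and Kcnj15 were down by day 2.

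Calcium-activated and sodium-activated potassium channels moved in both directions. Kcnn3, a small-conductance calcium-activated pore of dopaminergic and other neurons, rose in all 3 genotypes. On day 0 Kcnn3 was at 0.0553, 0.0185 and 0.00477 FPKM in WT, 0.0445, 0.0621 and 0.0389 FPKM in Per1-/- cells and 0.0489, 0.0406 and 0.0667 FPKM in the libraries labelled Per2-/-. On day 2 Kcnn3 was at 3.89, 4.36 and 3.36 FPKM in WT, 4.75, 3.89 and 3.17 FPKM in Per1-/- cells and 2.90, 2.24 and 2.15 FPKM in the libraries labelled Per2-/-. On day 4 Kcnn3 was at 2.60, 2.78 and 2.32 FPKM in WT, 3.30, 2.48 and 1.93 FPKM in Per1-/- cells and 1.97, 1.53 and 2.25 FPKM in the libraries labelled Per2-/-. The means of day 2 were 46.7 to 148 times those of day 0. Kcnn4, the intermediate-conductance pore of fibroblasts, blood cells, and macrophages, fell by day 2 in all 3 genotypes. Its group means were 4.26 to 5.14 FPKM on day 0 and 0.879 to 1.98 FPKM on day 2 (log2 fold changes -1.89 (WT), -1.06 (Per1-/-), and -2.31 (labelled Per2-/-)), the fall in Per1-/- cells being lost when libraries were scaled by total fragments or to a common sum. On day 4 Kcnn4 was at 2.75 to 3.34 FPKM, and the rise from day 2 was called in the libraries labelled Per2-/- (log2 fold change 1.48). Kcnt1 and Kcnt2 encode sodium-activated pores that follow bursts of firing. Kcnt1 had 0, 1 and 0 fragments in WT on day 0, then 256, 138 and 293 fragments on day 2, then 161, 129 and 312 fragments on day 4, and the ratio of day 2 to day 0 was 656 (95% counting interval 117 to 25943). The same ratio for Per1-/- cells was 254 (95% counting interval 70.1 to 2103), and for the libraries labelled Per2-/- it was 507 (95% counting interval 90.6 to 20055). Kcnt2 means were 0.0964 to 0.281 FPKM on day 0 and 1.70 to 2.65 FPKM on day 4. Kcnma1, the large-conductance BK pore, was under the filter at 0.236 to 0.367 FPKM on day 4.

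Inward rectifiers held 2 of the 5 members that were lower on day 4 in all 3 genotypes. Kcnj4 and Kcnj15, inward rectifier pores expressed in the day 0 cultures, fell in all 3 genotypes. Kcnj4 group means were 1.44 to 1.84 FPKM on day 0 and 0.347 to 0.458 FPKM on day 4. Kcnj15 was at 1.47, 1.29 and 2.23 FPKM in WT, 4.49, 0.945 and 2.50 FPKM in Per1-/- cells and 1.25, 2.66 and 1.22 FPKM in the libraries labelled Per2-/- on day 0. On day 4 Kcnj15 was at 0.153, 0.0925 and 0.141 FPKM in WT, 0.246, 0.223 and 0.223 FPKM in Per1-/- cells and 0.249, 0.219 and 0.0447 FPKM in the libraries labelled Per2-/-. From day 0 to day 4 the log2 fold changes were -2.07 to -1.46 for Kcnj4 (SE 0.33) and -2.92 to -2.75 for Kcnj15 (SE 0.47). Kcnj2, a classical strong rectifier of heart, muscle, and brain, moved the other way, rising by day 4 in Per1-/- cells (log2 fold change 1.42) and the libraries labelled Per2-/- (0.75). The latter call was lost with the replicate number as a block (adjusted p = 0.0588). In WT it was at 0.59 (adjusted p = 0.0850), which was not called. The other 12 inward rectifier genes were under the filter. Kcnj11, the pore of the neuronal and pancreatic ATP-sensitive channel, had 0 fragments in all 9 libraries of day 0. On day 2 it had 25, 12 and 45 fragments in WT, 8, 33 and 17 in Per1-/- cells and 20, 43 and 32 in the libraries labelled Per2-/-, and it was not tested.

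The potassium channel auxiliary subunits held the members with the largest fitted changes in both directions on the log2(FPKM + 0.1) scale. This scale understates the rise of genes near 0 on day 0, such as Kcnc4, Kcnt1, and Kcnn3. Kcne1l, an X-linked single-span subunit of the KCNE family that modulates pores such as Kcnq1, had the largest log2 fold change of the 51 tested members on day 4 in all 3 genotypes. On day 0 Kcne1l was at 0.715, 0.595 and 0.388 FPKM in WT, 0.636, 0.589 and 0.307 FPKM in Per1-/- cells and 0.626, 0.344 and 0.151 FPKM in the libraries labelled Per2-/-. On day 2 Kcne1l was at 17.1, 21.8 and 21.5 FPKM in WT, 16.1, 20.2 and 20.5 FPKM in Per1-/- cells and 14.9, 13.3 and 13.4 FPKM in the libraries labelled Per2-/-. On day 4 Kcne1l was at 16.3, 20.9 and 21.6 FPKM in WT, 16.7, 16.1 and 14.3 FPKM in Per1-/- cells and 18.7, 14.2 and 14.5 FPKM in the libraries labelled Per2-/-. No later library overlapped day 0, and the log2 fold changes from day 0 to day 4 were 4.91 (WT), 4.74 (Per1-/-), and 5.19 (labelled Per2-/-) (SE 0.28), or 30.8 to 42.3 times in means. Kcnmb1, the β subunit that gives the BK channel of smooth muscle its calcium sensitivity, had the largest fall on day 4 in all 3 genotypes. On day 0 Kcnmb1 was at 3.51, 2.70 and 2.53 FPKM in WT, 1.15, 1.32 and 3.93 FPKM in Per1-/- cells and 2.53, 1.96 and 2.27 FPKM in the libraries labelled Per2-/-. On day 2 Kcnmb1 was at 0.101, 0.0276 and 0.160 FPKM in WT, 0, 0.0981 and 0.180 FPKM in Per1-/- cells and 0.121, 0.0979 and 0.0609 FPKM in the libraries labelled Per2-/-. The groups of the 2 days did not overlap, and the log2 fold changes between them were -3.99 (WT), -3.44 (Per1-/-), and -3.61 (labelled Per2-/-). Beside it, 7 of 8 tested smooth muscle and contractile markers fell from day 0 to day 4 in WT, and the list of 9 genes summed to 2885 to 3942 FPKM on day 0 and 275 to 319 FPKM on day 4. Their part in the Kcnmb1 result was not tested. Kcnab1, which encodes a β subunit that speeds the inactivation of Shaker-family pores, fell too. On day 0 Kcnab1 was at 8.73, 3.46 and 12.6 FPKM in WT, 11.6, 7.60 and 10.7 FPKM in Per1-/- cells and 5.72, 9.80 and 7.19 FPKM in the libraries labelled Per2-/-. On day 4 it was at 1.01, 1.08 and 1.66 FPKM in WT, 1.26, 1.21 and 1.94 FPKM in Per1-/- cells and 0.762, 1.44 and 0.831 FPKM in the libraries labelled Per2-/-, each library below each day 0 library of its genotype.

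The other β subunits of that family rose. Kcnab2 rose by day 4 in all 3 genotypes (log2 fold changes 1.17 to 1.59), and these 3 calls were lost with macrophage markers as a covariate. The 15 macrophage markers themselves summed to 217 to 489.8 FPKM in WT on day 0 and 579.8 to 1070.3 FPKM on day 4, with 11 of 15 called higher. As the covariate rose with day, that fit cannot separate the markers from the day. Their part in the Kcnab2 result was not tested. Kcnab3 was highest on day 2, at 2.46 to 3.88 FPKM, against 0.612 to 0.895 FPKM on day 0. It starts 0.231 Mb from Per1 on chromosome 11, and between genotypes its largest log2 fold change on day 4 was -0.76 (Per1-/- against the libraries labelled Per2-/-, adjusted p = 0.248), which was not called. Kcnip3, a calcium-binding subunit of A-type pores that also acts as the transcriptional repressor DREAM, rose, with 0.257 to 0.423 FPKM on day 0 and 1.47 to 1.94 FPKM on day 4 (log2 fold changes 2.08 to 2.44). Kcne4, which inhibits several Kv pores, rose by day 4 in WT (log2 fold change 1.25) and was not called in Per1-/- cells (0.62) or the libraries labelled Per2-/- (0.53).

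Among tandem pore domain channels, which leak potassium at rest, Kcnk13 and Kcnk6 rose in all 3 genotypes and the mechanosensitive Kcnk2 and the acid-sensitive Kcnk5 were not called. Kcnk13, known from microglia and other myeloid cells as well as neurons, was at 0.532 to 0.804 FPKM on day 0, 2.44 to 4.39 FPKM on day 2, and 1.41 to 3.27 FPKM on day 4. Its day 4 rise was lost in Per1-/- cells and the libraries labelled Per2-/- with macrophage markers as a covariate. Kcnk6, known from macrophages, where it passes the potassium efflux that precedes inflammasome activation, was at 1.04, 0.955 and 0.877 FPKM in WT, 1.61, 1.20 and 1.66 FPKM in Per1-/- cells and 1.78, 1.28 and 1.59 FPKM in the libraries labelled Per2-/- on day 0. On day 2 Kcnk6 was at 1.57, 1.53 and 1.35 FPKM in WT, 2.25, 1.77 and 2.10 FPKM in Per1-/- cells and 1.64, 1.19 and 1.48 FPKM in the libraries labelled Per2-/-. On day 4 Kcnk6 was at 3.11, 3.63 and 2.52 FPKM in WT, 4.91, 3.85 and 3.98 FPKM in Per1-/- cells and 3.02, 1.90 and 2.49 FPKM in the libraries labelled Per2-/-. From day 2 to day 4 its log2 fold changes were 0.99 (WT), 1.02 (Per1-/-), and 0.73 (labelled Per2-/-) (SE 0.18, adjusted p of at most 0.0196), and every day 4 library was above every day 2 library of its genotype. With macrophage markers as a covariate the calls of Kcnk6 on day 4 in the libraries labelled Per2-/- were lost, against day 0 and against day 2. The macrophage markers summed to 312 to 509.7 FPKM on day 2 and 579.8 to 1070.3 FPKM on day 4 in WT, 604 to 1283 FPKM and 1209 to 2146 FPKM in Per1-/- cells, and 172 to 377 FPKM and 444 to 786 FPKM in the libraries labelled Per2-/-.

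**Figure D5:**
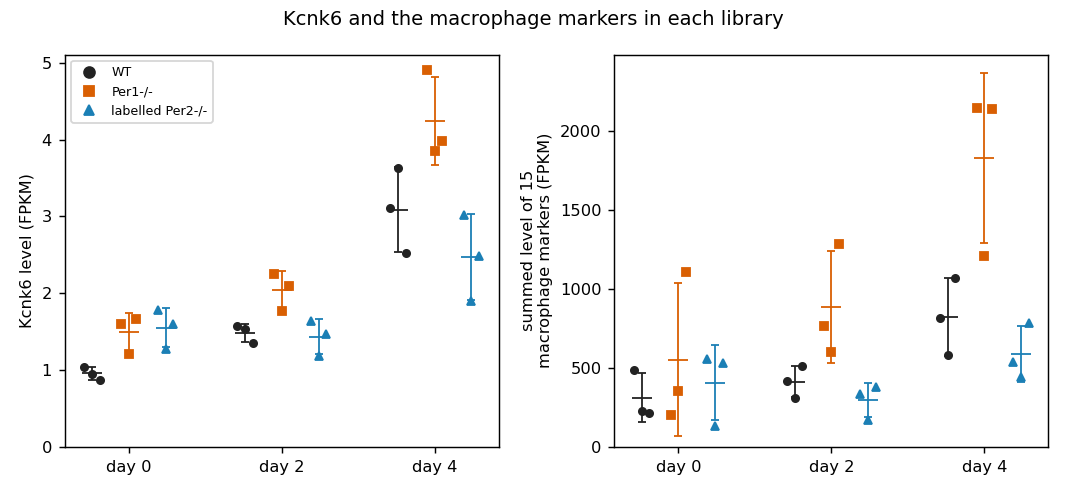
Kcnk6 level (left) and summed level of 15 macrophage markers (right), both in FPKM from 0 (y axes), in each library by day (x axes) and genotype (symbols), with group means and bars of 1 SD (n = 3). In both panels the 3 Per1-/- libraries of day 4 lie above the 3 libraries labelled Per2-/- of day 4.

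Few members changed between day 2 and day 4. The count was 4 higher and 0 lower in WT (Cacng4, Kcnc1, and Kcnk6 among them), where 3.21% of all genes were called, 1.62% higher and 1.59% lower, and the same 4 genes in Per1-/- cells (background 2.44%, 1.38% higher and 1.06% lower). In the libraries labelled Per2-/- it was 3 higher (Cacng4, Kcnk6, and Kcnn4) and 1 lower (Kcnc4), with a background of 4.06%, 2.32% higher and 1.74% lower. The 4 calls were 7.84% in each genotype. The WT and the Per1-/- libraries of these days were taken as paired by replicate number, from correlated deviations and not from a label. With the replicate number as a block the count was 8 in WT (background 5.55%), with Cacna1b, Cacna2d3, Kcnc4, and Kcnip3 added. It was 8 in Per1-/- cells (background 4.89%), with Cacna1b, Cacna1c, Kcnab3, and Kcnn3 added. The 2 sets of added genes have Cacna1b in common. Leaving out single libraries gave 2 to 4 calls in WT, 1 to 3 in Per1-/- cells, and 1 to 8 in the libraries labelled Per2-/-. In the last group the count was 1 without day 4 replicate 1 or 3 and 8 without day 4 replicate 2.

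Counting by type, the test took in 14 of 40 Kv pores, 7 of 17 potassium channel auxiliary subunits, 3 of 15 inward rectifiers, 4 of 14 tandem pore domain channels, 5 of 8 calcium-activated or sodium-activated channels, 5 of 10 calcium and 2 of 10 sodium channel pores, 2 of 8 γ, 2 of 4 β and 2 of 4 α2δ subunits of calcium channels, 2 of 4 sodium channel β subunits, and 3 of 4 Hcn genes. A further 24 members were under 0.5 FPKM and had a mean of at least 20 fragments. In a fit over the 14649 genes with that many fragments, 18 of these 24 were higher and 1 lower in WT on day 4 than on day 0 (background 46.9% of genes called in both directions). The counts were 19 and 1 in Per1-/- cells (background 46.2%) and 17 and 0 in the libraries labelled Per2-/- (background 43.6%). The falls were Cacng8 in WT (log2 fold change -1.07) and Cacnb2 in Per1-/- cells (-0.65). Kcnb2 and Kcnip1 were among those called in no genotype by day 4, and Scn1a was not called in the libraries labelled Per2-/- (0.26). Examples of the members that rose follow with their group means on day 4, all of them under 1 FPKM. Kcna2, a delayed rectifier of axons, rose to 0.741 to 0.861 FPKM (log2 fold changes 2.41 to 2.65). Cacna1d, an L-type pore of neurons and endocrine cells, rose to 0.581 to 0.658 FPKM (1.77 to 2.38), and Cacna2d2, an α2δ subunit of cerebellar neurons, to 0.765 to 0.977 FPKM (2.73 to 3.07). Scn8a, the pore of mature axon initial segments, rose to 0.170 to 0.218 FPKM (1.14 to 1.31).

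Kcnk9, an acid-sensitive leak channel, had 0 fragments in WT on day 0 and 40, 105 and 93 on day 4, at least 74.8-fold higher. Kcnj8, the pore of the vascular ATP-sensitive channel and a pericyte marker, rose by day 4 in WT (log2 fold change 1.87) and Per1-/- cells (1.48) and was not called in the libraries labelled Per2-/- (0.81). Of the 6 other pericyte markers tested, 2 were higher and 3 lower on day 4 in each genotype. Its partner Abcc9, the sulfonylurea receptor that assembles with it, rose by 1.76 to 2.79 on the log2 scale over the 3 genotypes. The remaining 63 members passed neither filter and reached at most 1.13 FPKM in a single library, and they were not tested. Kcnj1 and Kcnk16 had 0 fragments in all 27 libraries.

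Channel partners, 55 genes for proteins that bind, anchor, or regulate these channels, were read beside the members. In WT 16 of 34 tested were higher and 4 lower on day 4 than on day 0, with a median log2 fold change of 0.52 against -0.02 for all genes. In Per1-/- cells the counts were 17 and 4, and in the libraries labelled Per2-/- they were 18 and 4. Nalcn, a sodium leak channel that depolarizes neurons at rest, rose, with group means of 0.0273 to 0.0420 FPKM on day 0 and 1.68 to 2.51 FPKM on day 4. Fgf12 and Fgf11, intracellular FGF homologues that bind sodium channel pores, rose with log2 fold changes of 3.48 to 3.74 and 3.07 to 3.44. Jph2, which couples calcium channels to internal stores in muscle, fell (-3.03 to -2.89), as did the channel inhibitor Rem1 (-1.14 to -0.88). Of these partners, Nfasc, a cell adhesion protein of the axon initial segment, was the one called in WT between day 2 and day 4 (log2 fold change 1.35).

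Between genotypes on the same day, 1 call was made among the members in 9 comparisons by limma. Kcnk6 was higher in Per1-/- cells than in the libraries labelled Per2-/- on day 4 (log2 fold change 0.77, SE 0.18, adjusted p = 0.0435), where 0.556% of all genes were called. Its 3 Per1-/- libraries of day 4 lay at 4.91, 3.85 and 3.98 FPKM and the 3 libraries labelled Per2-/- at 3.02, 1.90 and 2.49 FPKM, with WT at 3.11, 3.63 and 2.52 FPKM, below every Per1-/- library and overlapping the libraries labelled Per2-/-. The macrophage markers summed to 2146, 1209 and 2138 FPKM in the same Per1-/- libraries, 538, 444 and 786 FPKM in those labelled Per2-/-, and 818, 579.8 and 1070.3 FPKM in WT, none of the 15 being at or near 0. With these markers as a covariate the log2 fold change of Kcnk6 was 0.57 and the adjusted p was 0.267. The call of Kcnk6 was also lost when any of the 6 libraries was left out (adjusted p from 0.0570 to 0.233) and with the replicate block (adjusted p = 0.0501). That block joined same-numbered libraries of different genotypes. On day 4 the deviations of these Per1-/- and labelled Per2-/- libraries correlated at -0.076 to -0.016, so they were not paired in the data. Among members not called in the same comparison were Kcnh6 (log2 fold change 0.93, adjusted p = 0.178), Kcnq5 (log2 fold change -1.10, adjusted p = 0.199), and Cacna2d3 (log2 fold change -1.64, adjusted p = 0.201).

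On day 4, the libraries of Per1-/- cells and those labelled Per2-/- did not overlap for 14 of the 51 tested members, where 19.2% of all genes did not. The counts were 5 for Per1-/- against WT (background 14.6%) and 7 for the libraries labelled Per2-/- against WT (background 10.2%). Against WT no member was called on any day by limma, where 0.0134%, 0.00670%, and 0.0268% of all genes were called in Per1-/- cells on days 0, 2, and 4 and 0.00670%, 0.0268%, and 0.00670% in the libraries labelled Per2-/-. Between Per1-/- cells and those libraries the background was 0.0201% on day 0 and 0.0737% on day 2, with no member called. At an unadjusted p under 0.05 the numbers of members were 2, 2, and 2 for Per1-/- and 2, 2, and 4 for the libraries labelled Per2-/- against WT on days 0, 2, and 4, and 3, 8, and 8 for the former against the latter. The 8 members were 15.7% of those tested, where 8.22% of all genes on day 2 and 13.2% on day 4 had such a p. Against WT the members' shares were 3.92% to 7.84% and those of all genes 2.75% to 6.19%. With fragments under voom weights the count against WT was 0 on every day as well, while Per1-/- against the libraries labelled Per2-/- on day 4 gave 2 members, Kcnk6 being 1 of them. The change over time was also compared with that of WT. In the 4 tests of that difference limma called 0 of 14932 genes, members included, with 306 to 500 genes and 0 to 3 members at an unadjusted p under 0.05. Kcnk6 had the smallest of these p-values among the members, its change from day 0 to day 4 differing by -0.95 on the log2 scale in the libraries labelled Per2-/- than in WT (limma, adjusted p = 1.00).

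Reads were counted without strand, so genes that share exon bases with another gene are uncertain. In GENCODE on GRCm38, 4 members shared over 20% of their exon bases with another gene. They were Kcna6 (with Gm26673, 39.6%), Kcnj13 (with Gigyf2, 49.1%), Kcnj3 (31.1%), and Kcnmb4 (31.5%). Of these, Kcna6 was tested and rose by day 4 in all 3 genotypes (log2 fold changes 1.05 to 1.20).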

How the data were processed

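Bulk poly-A RNA of 27 libraries was sequenced in pairs without strand. Per the labels and the study's methods, the authors aligned reads to mm10 with HISAT2 2.0.5, counted fragments per gene with featureCounts 1.5.0-p3 and deposited FPKM values, which divide each gene's fragments by gene length and by a library size. The sizes behind the deposited FPKM were 0.865 to 0.925 times the fragments on genes on day 0 and 1.03 to 1.10 times on days 2 and 4, and how they were set is not given in the sources used here. From the deposited FPKM and gene lengths 100% of values came back as whole fragments, within 0.01. Depth was 15815013 to 24264097 fragments, and replicate libraries correlated at 0.948 to 0.971. The recovered fragments were used in an alternative only, and the FPKM were tested with limma 3.58.1 in R 4.3.3 on log2(FPKM + 0.1) over the 14932 genes that averaged 0.5 FPKM or more, with 9 groups sharing 1 estimate of the spread, a mean-variance trend and no block. A call needed a Benjamini-Hochberg adjusted p no higher than 0.05 and a change no smaller than 0.58 on the log2 scale. There were 9 comparisons of days, 9 of genotypes, and 4 of the change over time. Where the labels do not say that libraries came from separate cultures, p-values measure the spread between libraries. The members and lists were chosen with earlier results of these data known.

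All 138 members may be named. Values per library were given for the members with the largest called changes, for those called between genotypes, and for a set list. Other genes named were the targeted and transduced genes, Rest, markers, and partners (up to 3 in each direction), and Kcnj11 and the muscle channels were added after their values were seen. A gene under 0.5 FPKM was read in a fit over genes with at least 20 fragments. Where a group had 0 fragments, folds used a floor of 3 fragments over the group, and with 1 to 3 fragments an exact 95% counting interval. Same-numbered libraries deviated together in every pair, by a correlation over 0.1, for WT day 4 against day 2 (0.127 to 0.196), Per1-/- day 2 against day 0 (0.150 to 0.294), and Per1-/- day 4 against day 2 (0.140 to 0.284), which were taken as paired. Alternatives were other pseudocounts and filters, fits of the compared groups alone, other scalings, voom weights on the recovered fragments, the replicate block, macrophage markers as a covariate, and leaving out each library. Promoters came from RefSeq on GRCm38.p6 and exon overlaps from GENCODE on GRCm38. A few genes are not reported here. The fit was tested on simulated data.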

Additional observations from a re-analysis of the deposited data

How the results depend on the processing

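None of the 251 called changes of members reversed in direction under the alternatives run. With a mean of at least 1 FPKM, which removes members from the test, the calls by day 2, by day 4, and from day 2 to day 4 were 23, 25, and 2 in WT and 25, 24, and 2 in Per1-/- cells, and the first 2 counts were 22 and 23 in the libraries labelled Per2-/-. With no filter, which adds members, 67, 67, and 60 were called by day 4 in that order of genotypes, and 8 (Per1-/-) and 10 (labelled Per2-/-) from day 2 to day 4. The counts from day 2 to day 4, for WT, Per1-/-, and the libraries labelled Per2-/-, were 1, 1, and 2 with a pseudocount of 0.01, 13, 10, and 14 with at least 20 fragments, and 8, 7, and 8 with voom weights. With the compared groups alone they were 8 in WT and 2 in Per1-/- cells, and with the macrophage covariate 7 in WT and 7 in the libraries labelled Per2-/-. With the replicate block they were 8, 8, and 10, and the block moved no other count above 0 by over 1.5 times, except that the Kcnk6 call between genotypes was lost. It also ended the day 4 call of Kcnj2 in the libraries labelled Per2-/- and added calls of Kcnk2, Kcnk5, and Scn7a in comparisons with day 0. The cause of these shifts was not tested, other than the number of genes that the filters change. For the filters, pseudocounts, voom weights, compared groups alone, and macrophage covariate, the share of all genes called is not given beside these counts. These counts therefore do not set the members against all genes.

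Per1-/- against the libraries labelled Per2-/- on day 4 gave 2 members with a pseudocount of 1 and with voom weights, and 0 with a pseudocount of 0.01, no filter, the compared groups alone, a common sum, total fragments (an alternative chosen after seeing the data), the replicate block, and the macrophage covariate.

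Leaving out single libraries gave, by day 2, by day 4, and from day 2 to day 4, 35 to 39, 37 to 42, and 2 to 4 calls in WT, 34 to 39, 40 to 41, and 1 to 3 in Per1-/- cells, and 33 to 40, 34 to 41, and 1 to 8 in the libraries labelled Per2-/-. Between day 2 and day 4, WT had 2 calls without day 2 replicate 1 or 3 or day 4 replicate 2 or 3, Per1-/- cells had 1 without day 4 replicate 2 and 2 without day 2 replicate 2 or 3 or day 4 replicate 1, and the libraries labelled Per2-/- had 1 without day 4 replicate 1 or 3, 2 without day 2 replicate 2 or 3, and 8 without day 4 replicate 2. Per1-/- against the libraries labelled Per2-/- on day 4 gave 0 to 1, the 1 being Kcns3 without day 4 replicate 2 of the latter. In 1506 refits of the 251 called changes of members, each without 1 library, 125 lost the call. A pseudocount of 1 ended 48 of the 251 calls, the macrophage covariate 23, the compared groups alone 22, and the other settings 14 or fewer each. At this depth 63 of 138 members passed neither filter and were not tested.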

Other observations

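Other cell type lists were read beside the channels from day 0 to day 4. Skeletal muscle markers gave 7 higher and 3 lower of 13 (WT), 6 and 3 (Per1-/-), and 6 and 2 (labelled Per2-/-). Pericyte markers gave 2 higher and 3 lower of 6 (WT), 2 and 3 (Per1-/-), and 2 and 3 (labelled Per2-/-), glial markers 1 higher and 0 lower of 4 (WT), 2 and 0 (Per1-/-), and 3 and 0 (labelled Per2-/-), and endothelial markers 1 higher and 1 lower of 2 (WT), 1 and 1 (Per1-/-), and 1 and 1 (labelled Per2-/-). The median log2 fold change of the skeletal muscle list was 2.11 (WT), 0.35 (Per1-/-), and 1.01 (labelled Per2-/-). Among the channel genes of skeletal muscle, Cacna1s, the pore that triggers contraction, had means of 0.0127 to 0.199 FPKM on day 0 and 0.10 to 0.155 FPKM on day 4, Cacng1, its γ subunit, 0 to 0.298 and 0.0761 to 0.216 FPKM, and Scn4a, the muscle sodium pore, 0.00249 to 0.0276 and 0.0171 to 0.0308 FPKM. All 3 were under the filter and were not tested.

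Kcnj13 starts 4.03 Mb from Per2 on chromosome 1. Its mean level was 0.0933 FPKM, under the filter.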
